A study of Mus musculus with 2 samples.

Results

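The genes described here are those of fat cells and of fatty acid synthesis: adipokines, lipid droplet proteins, adipocyte transcription factors, and the enzymes and carriers that make, store, take up and break down fat. They were taken as every probe set whose single gene symbol in the annotation of the array is on a list of 41 such genes. Of these, 36 had a probe set of their own, 69 probe sets in all, out of 12393 named genes and 22690 probe sets on the array. The 5 others (Cfd, Plin1, Agpat2, Adrb3 and Acsl1) are named only. Of the 69 probe sets, 4 are array controls for Pcx and were kept out of the ratios. The series holds total RNA of mouse femur bone, labelled as C57BL/6, from 1 allograft sample and 1 autograft sample, each measured on 1 oligonucleotide array. In an autograft the donor and the recipient are the same animal, and in an allograft they are different animals of one species. The labels do not say whether C57BL/6 is the donor or the recipient strain, and give no time after grafting, age or number of animals.

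Fat cells store triglyceride in a lipid droplet and secrete hormones such as adiponectin and resistin. Fatty acids reach the droplet from the blood, through lipoprotein lipase and carriers, or are built in the cell from citrate by ATP citrate lyase, acetyl-CoA carboxylase and fatty acid synthase, then lengthened and desaturated. In long bones fat cells lie in the marrow, and muscle, macrophages and liver share many of the enzymes and carriers.

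With 1 array per graft type no replicate error is known and no test between the graft types can be made, so every difference below describes these 2 arrays. Each value is an intensity, the brightness of a group of short oligonucleotides read as 1 number, on the deposited linear scale, and the number of arrays limits its precision. The 2% trimmed mean was 500.2 for the allograft and 500.1 for the autograft array. The floor is the median of all non-control intensities, 175.2. Values under it have no order here, and they were set to it before the log2 ratio of allograft over autograft was taken. Apart from sums over lists and the choice of the brightest probe set of a gene, intensities of different probe sets are not compared with each other. Only spreads within this 1 pair of arrays can be measured. Over 1925 genes the ratios of the brightest and the next probe set differed with an SD of 0.44 on the log2 scale. Across the 7833 named genes above the floor on at least 1 array the SD of the log2 ratio was 0.38. Neither is a replicate error. In a bulk sample, fewer cells of a type and less RNA per cell cannot be told apart.

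Of the fat genes, 6 lay 2-fold or more higher in the allograft sample: the adipokine genes Retn and Adipoq, the fatty acid synthesis genes Thrsp, Scd1 and Fasn, and Cyp2e1. None was 2-fold lower. They make up 6 of the 28 members (21.4%) that passed the floor on the allograft array, the autograft array or both, against 0.868% of the 7833 named genes above the floor. For 2-fold lower genes the counts were 0 of 28 members and 0.753% of all genes. The median log2 ratio was 0.23 over these 28 members and -0.08 over all 7833 genes, and 19 members (67.9%) had a ratio above 0, against 40.4% of all genes. The members were chosen with earlier results of these data known, so these contrasts describe the list and are no independent result. The remaining 8 members with a probe set were below the floor on both arrays. Where the trend of the ratio with intensity was subtracted, 1.03% of all genes were 2-fold higher and 0.447% lower, and the member counts were again 6 and 0.

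**Figure D1:**
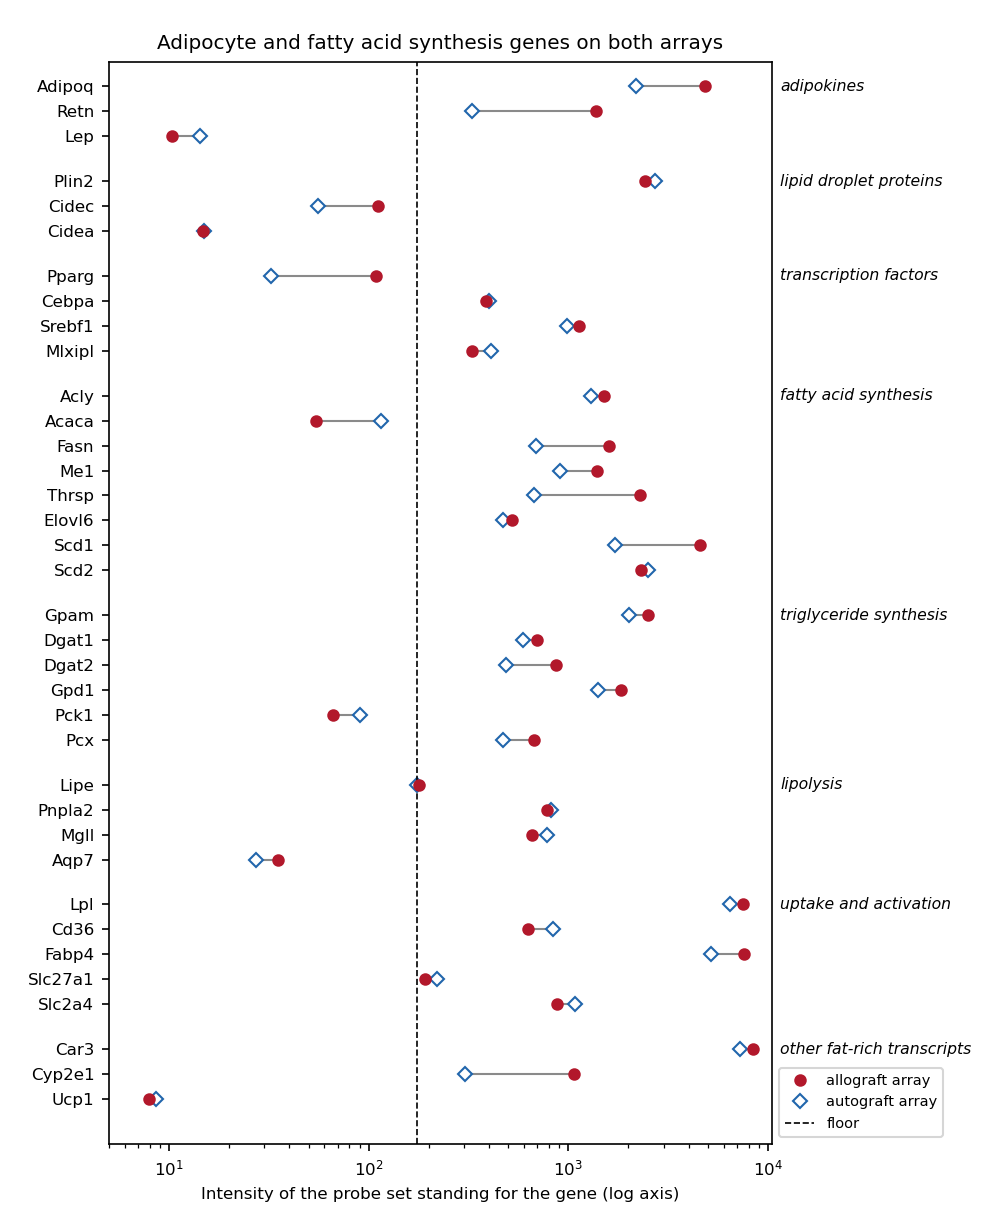
Intensity of the probe set standing for each of the 36 members on the allograft array (filled circles) and the autograft array (open diamonds), on a log axis and grouped by role, with the floor of 175.2 as a dashed line. The longest gaps above the floor belong to Retn, Cyp2e1 and Thrsp, each with the allograft circle on the right, while 8 members lie left of the floor on both arrays.

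The adipokine genes above the floor were both higher in the allograft sample. Retn encodes resistin, a hormone that mouse fat cells secrete. Its 1 probe set read 1381 in the allograft sample, against 328 in the autograft sample, a log2 ratio of 2.07 (4.21-fold), the fifth highest of 7101 named genes above the floor on both arrays. Adipoq encodes adiponectin, a hormone made by fat cells. Its 1 probe set read 4839 in the allograft sample and 2176 in the autograft sample, a log2 ratio of 1.15 (2.22-fold) and rank 44 of 7101. Lep, which encodes the satiety hormone leptin, read 10.4 in the allograft sample and 14.3 in the autograft sample. Both leptin values lie below the floor, so no ratio is given.

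Fatty acid synthesis was the role with the most 2-fold members, 3 of the 7 above the floor, and 6 of the 7 had a ratio above 0. Thrsp encodes Spot 14, a nuclear protein that promotes lipogenic gene expression in liver and fat. Its brighter probe set read 2293 in the allograft sample and 672 in the autograft sample (log2 ratio 1.77, rank 8 of 7101). Its other probe set read 580 in the allograft sample and 191.8 in the autograft sample, a log2 ratio of 1.60, so both probe sets were over 2-fold apart in 1 direction. Scd1, the stearoyl-CoA desaturase that makes oleate, read 4545 in the allograft sample and 1719 in the autograft sample (log2 ratio 1.40, rank 24). Its second probe set passed the floor only in the allograft sample, at 348, with 148 in the autograft sample, which puts it at least 1.99-fold higher. Fasn, fatty acid synthase, which builds palmitate, read 1607 in the allograft sample and 691 in the autograft sample, a log2 ratio of 1.22 (2.32-fold, rank 34).

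The other synthesis genes lay closer together on the arrays. Me1, the malic enzyme that supplies NADPH, read 1391 in the allograft sample and 911 in the autograft sample. Its log2 ratio was 0.61, and 0.49 in a second probe set. Acly, ATP citrate lyase, read 1508 in the allograft sample and 1293 in the autograft sample (log2 ratio 0.22). A second Acly probe set, marked as able to match several transcripts, stood at 0.85 (allograft 1703, autograft 948), so the size of the Acly difference depends on the probe set. Elovl6, which lengthens palmitate to stearate, stood at 0.16 (allograft 525, autograft 471). Scd2, a desaturase of the same family as Scd1, had a log2 ratio of -0.11 (2317 in the allograft sample and 2502 in the autograft sample). Of this pair, Scd1 was thus past 2-fold and Scd2 close to 0. Acaca, acetyl-CoA carboxylase, was below the floor on both arrays (allograft 54.3, autograft 115.4).

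Cyp2e1, a cytochrome P450 that oxidises ethanol and is abundant in liver and also made in fat, read 1072 in the allograft sample and 303 in the autograft sample. Its log2 ratio of 1.82 (3.54-fold) was the seventh highest of 7101. Of 9 liver marker genes with a probe set, 8 were below the floor on both arrays, and Alb, serum albumin, read 189.2 in the allograft sample and 219.4 in the autograft sample. Of 10 epithelium and skin genes, 6 were below the floor on both arrays, among them the keratins Krt5 and Krt14. The other 4 were above it on both arrays, the keratins Krt8 (allograft 323, autograft 217), Krt18 (allograft 353, autograft 317) and Krt10 (allograft 290.1, autograft 295) and loricrin, Lor (allograft 179.6, autograft 207). Car3, a carbonic anhydrase of fat and slow muscle, read 8393 in the allograft sample and 7232 in the autograft sample. Its log2 ratio of 0.21 was of the other sign after quantile normalization or after the intensity trend was subtracted. The second Car3 probe set stood at 0.19.

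**Figure D2:**
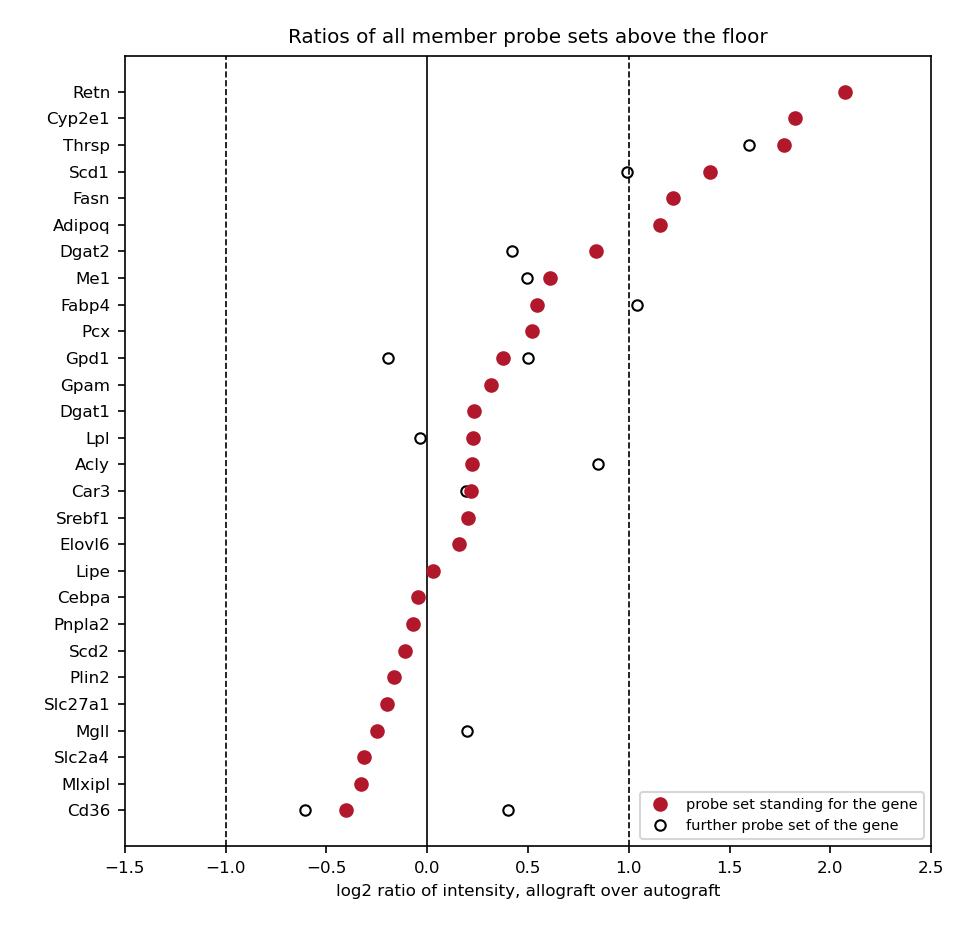
Log2 ratio of intensity, allograft over autograft, for every member probe set that passed the floor on either array, with filled circles for the probe set that stands for the gene, open circles for its further probe sets and dashed lines at a 2-fold difference. The 6 members at the top lie right of the 2-fold line, no member lies left of the other one, and the probe sets of Cd36, Gpd1, Lpl and Mgll lie on both sides of 0.

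The promoters of the genes that were 2-fold apart are shown because these members lay in 1 direction on the arrays, so that their starts can be compared letter by letter. RefSeq windows of assembly GRCm38.p6, from 250 bases before to 50 bases after the annotated start, were found for 5 of the 6; Scd1 is named only. Each is written 5′ to 3′ on the strand of the gene, with capitals at every match to CCAAT, the box bound by the factor NF-Y, or to its reverse complement ATTGG.
Retn, chr8:3655520-3655819, + strand: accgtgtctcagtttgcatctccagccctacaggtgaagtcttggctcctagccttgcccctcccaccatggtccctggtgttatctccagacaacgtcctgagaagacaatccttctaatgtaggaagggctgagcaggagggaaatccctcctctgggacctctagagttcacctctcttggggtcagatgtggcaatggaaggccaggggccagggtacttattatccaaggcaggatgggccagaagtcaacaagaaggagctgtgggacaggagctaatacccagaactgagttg
Cyp2e1, chr7:140763569-140763868, + strand: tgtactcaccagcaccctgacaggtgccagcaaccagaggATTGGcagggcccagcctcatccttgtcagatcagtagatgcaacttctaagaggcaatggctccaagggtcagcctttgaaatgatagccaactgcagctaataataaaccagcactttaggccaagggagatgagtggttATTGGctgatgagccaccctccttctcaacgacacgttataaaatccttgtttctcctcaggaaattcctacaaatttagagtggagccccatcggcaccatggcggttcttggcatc
Thrsp, chr7:97417501-97417800, - strand: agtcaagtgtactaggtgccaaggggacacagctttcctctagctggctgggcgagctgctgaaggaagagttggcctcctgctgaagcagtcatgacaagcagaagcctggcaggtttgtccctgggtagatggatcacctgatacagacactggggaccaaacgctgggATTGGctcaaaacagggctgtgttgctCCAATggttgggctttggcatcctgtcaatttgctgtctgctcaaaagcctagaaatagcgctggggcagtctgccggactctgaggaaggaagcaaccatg
Fasn, chr11:120824498-120824797, - strand: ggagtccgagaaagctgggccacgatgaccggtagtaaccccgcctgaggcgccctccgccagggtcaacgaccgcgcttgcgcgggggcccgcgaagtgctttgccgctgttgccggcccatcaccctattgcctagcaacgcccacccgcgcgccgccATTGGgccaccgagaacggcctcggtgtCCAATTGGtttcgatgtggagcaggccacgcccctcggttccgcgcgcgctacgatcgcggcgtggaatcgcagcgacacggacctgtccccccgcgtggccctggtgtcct
Adipoq, chr16:23146286-23146585, + strand: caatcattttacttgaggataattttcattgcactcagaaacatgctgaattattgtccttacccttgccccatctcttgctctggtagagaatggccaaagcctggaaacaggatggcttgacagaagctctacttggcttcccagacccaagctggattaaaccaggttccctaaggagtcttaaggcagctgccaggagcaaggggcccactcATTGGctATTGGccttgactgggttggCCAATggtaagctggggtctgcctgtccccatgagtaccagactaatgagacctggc
The letters CCAAT, on either strand, occurred in 4 of these 5 windows, all but that of Retn. They occurred in 45.0% of the 40 windows of members on the array and in 37.4% of all 32851 windows in the table. In Fasn there were 3 matches, 2 of which overlap in a palindrome, starting 62 and 59 bases before the start of the gene. Adipoq also held 3 matches, the farthest 34 bases before the start, Thrsp held 2, at 79 and 52 bases before it, and Cyp2e1 held 2, at 210 and 68 bases before it. TATAAA was found in the Cyp2e1 window, 31 bases before the start, and in 7.5% of the member windows and 13.6% of all windows. It does not overlap the CCAAT letters there. None of the 5 windows held CACGTG, an E-box, AGGTCA, a nuclear receptor half-site, or TCACNCCAC, a form of the sterol regulatory element, each searched on both strands. CACGTG was in 15.0% of the 40 member windows and 7.15% of all windows, AGGTCA in 27.5% of the member windows and 16.3% of all windows, and TCACNCCAC in 2.5% of the member windows and 1.24% of all windows. A match or its lack is a description of the letters alone. The GC content ran from 49.7% in the Cyp2e1 window to 69.3% in the Fasn window.

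Genes of triglyceride assembly and its supply that passed the floor all lay above 0, by less than 2-fold, in the probe set standing for each gene. Dgat2, which adds the last fatty acid to make triglyceride, read 872 in the allograft sample and 488 in the autograft sample, a log2 ratio of 0.84. Its second probe set stood at 0.42 (allograft 433, autograft 324). Dgat1, a second enzyme for that step, stood at 0.23 (allograft 696, autograft 592). Pcx, pyruvate carboxylase, which supplies oxaloacetate, read 672 in the allograft sample and 469 in the autograft sample (0.52). Of the 4 control probe sets for Pcx, the one at the 3′ end was above the floor, at 279.5 in the allograft sample and 232 in the autograft sample. Gpd1, which makes glycerol phosphate, stood at 0.38 (allograft 1841, autograft 1416), with further probe sets at 0.50 and -0.20. Gpam, the acyltransferase that opens triglyceride synthesis, stood at 0.32 (allograft 2511, autograft 2017). Pck1, which feeds glycerol synthesis in fat, was below the floor in both of its probe sets. The first read 141.6 in the allograft sample and 3.6 in the autograft sample, and the other 66.5 in the allograft sample and 90.2 in the autograft sample.

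The transcription factors of fat cells did not share a direction. Pparg, the master regulator of fat cell formation, was below the floor on both arrays, at 109.1 in the allograft sample and 32.3 in the autograft sample. Cebpa, its partner factor, read 388 in the allograft sample and 401 in the autograft sample, a log2 ratio of -0.05 that was above 0 under each of the 4 other scalings tried. Srebf1, which switches on fatty acid synthesis genes, stood at 0.20 (allograft 1137, autograft 989.5). Mlxipl, which encodes the carbohydrate-sensing factor ChREBP, stood at -0.33 (allograft 329, autograft 412). Each of these ratios is smaller than the SD of 0.44 between probe sets of one gene, and so are those of the genes of droplets and lipolysis that follow.

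Droplet and lipolysis genes had ratios close to 0 where they were above the floor. Plin2, a coat protein of lipid droplets in many cell types, read 2421 in the allograft sample and 2712 in the autograft sample, a log2 ratio of -0.16. Cidec, a droplet fusion protein of white fat, read 110.9 in the allograft sample and 56.0 in the autograft sample. Cidea, a related protein of brown fat, read 14.8 in the allograft sample and 14.9 in the autograft sample, and all 4 values lie below the floor. Pnpla2, the lipase that starts triglyceride breakdown, stood at -0.07 (783 in the allograft sample and 821 in the autograft sample), and at 0.00 with the intensity trend subtracted. Lipe, hormone-sensitive lipase, lay just above the floor in the allograft sample (178.6) and just below it in the autograft sample (175.0). Mgll, which cleaves the last fatty acid, stood at -0.25 (allograft 659, autograft 782) in one probe set and at 0.20 in another. Aqp7, the glycerol channel of fat, was below the floor (allograft 35.3, autograft 27.3), and so was Ucp1, the uncoupling protein of brown fat (allograft 7.9, autograft 8.6).

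Among the genes of fat uptake, Fabp4, the fatty acid binding protein of fat cells, macrophages and small vessels, had the highest ratio. It read 7582 in the allograft sample and 5193 in the autograft sample, a log2 ratio of 0.55. A second Fabp4 probe set read 6271 in the allograft sample and 3045 in the autograft sample, a log2 ratio of 1.04. As deposited, the gene is thus past the 2-fold line by one probe set and short of it by the other. With the intensity trend subtracted the second probe set stood at 0.88, so neither was past the line. Lpl, lipoprotein lipase, read 7528 in the allograft sample and 6422 in the autograft sample. Its log2 ratio of 0.23 was -0.04 in a second probe set, and below 0 after quantile normalization or with the intensity trend subtracted. Cd36, a fatty acid receptor, had 3 probe sets above the floor, at -0.40 (allograft 631.5, autograft 833.5), 0.40 (allograft 592, autograft 449) and -0.61 (allograft 303, autograft 461), so the arrays give it no single direction. Slc2a4, the insulin-responsive glucose transporter of fat and muscle, stood at -0.31 (allograft 873, autograft 1084), and Slc27a1, a fatty acid transporter, at -0.20 (allograft 191, autograft 219). Of 11 members with several probe sets above the floor, 7 had all of them on one side of 0 and 4 did not.

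**Figure D3:**
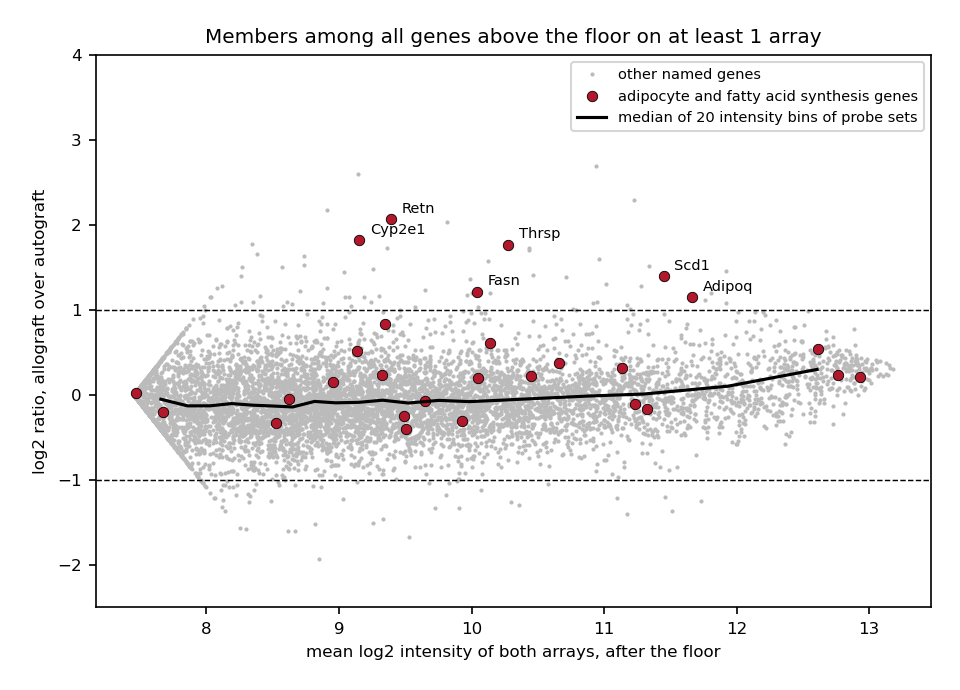
Log2 ratio of allograft over autograft against mean log2 intensity after the floor, for the 28 members (large circles) and the other named genes (small points), with the median of 20 intensity bins of probe sets as a black line and dashed lines at a 2-fold difference. The 6 named members lie above the upper dashed line, and the median line is highest, at 0.30, in the brightest bin.

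The ratio depended on intensity over the whole array, with a median of -0.05 in the dimmest of 20 bins and 0.30 in the brightest, around an intensity of 6239. With that trend subtracted the 6 genes stood at 2.15 (Retn), 1.91 (Cyp2e1), 1.83 (Thrsp), 1.35 (Scd1), 1.28 (Fasn) and 1.06 (Adipoq), all again past 2-fold. Fabp4 stood at 0.31, Lpl at -0.03 and Car3 at -0.08. RNA breakdown raises the ratio of 3′ to 5′ control intensity. For beta-actin this ratio was 1.77 in the allograft sample and 1.19 in the autograft sample, and for Gapdh it was 0.194 in the allograft sample and 0.0349 in the autograft sample. Both ratios were higher in the allograft sample, and the Gapdh 3′ control was dimmer than its 5′ control in each sample. No such ratio is given for pyruvate carboxylase, whose 5′ control lay under the floor in both samples. The part of the intensity trend and of these ratios in the differences between members was not tested.

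Lists of related genes, chosen for their pathways, lay near all genes in their medians. Like the members, these lists were chosen with earlier results of these data known. Of 19 further adipocyte genes above the floor, 8 had a ratio above 0, and their median was -0.10, against -0.08 for all genes. Adig, adipogenin, a small protein of fat cells, was the highest, just past 2-fold, with 359 in the allograft sample, 179 in the autograft sample and its autograft value next to the floor. Cav2, a caveolin, was next at 0.27 (allograft 943, autograft 781). Rbp4, which carries retinol, was the lowest at -0.81 (allograft 1104, autograft 1935.5), and Agt, angiotensinogen, stood at -0.55 (allograft 205, autograft 302). Plin4, a droplet coat protein of fat and muscle, stood at -0.43 (allograft 903, autograft 1217). Over the 16 adipocyte markers, of which 13 had a probe set, 8 were above the floor and 6 of these had a ratio above 0. Those without a value above the floor were Lep, Cidec, Pparg, Aqp7 and Lgals12. The summed intensity of the 13, values under the floor included, was 24454 in the allograft sample and 17173 in the autograft sample. Car3, Fabp4 and Adipoq were the largest terms of this sum in both samples. Over all named genes the sum in the allograft sample was 1.02 times that in the autograft sample. Bright probe sets weigh most in this sum and in those of other lists below, and the intensity trend was not subtracted from any of them. The adipocyte list shares 13 of its 16 genes with the members. Over the 3 that are no member, Plin4, Adig and Lgals12, the sum was 1425.5 in the allograft sample and 1537 in the autograft sample. The median of the 8 markers above the floor was 0.38 as deposited, 0.18 after quantile normalization and 0.20 with the intensity trend subtracted.

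Of 21 further lipogenic enzymes above the floor, 7 had a ratio above 0 and 14 below, 0 were 2-fold apart, and the median was -0.04. Under each of the 4 other scalings 11 were above 0 and 10 below. The number of all named genes above 0 rose as well, from 3166 of 7833 as deposited. It was 3590 of 7824 after quantile normalization and 3764 of 7825 scaled to the 75th percentile, with the other scalings between. Dbi, the acyl-CoA binding protein, stood at 0.64 (allograft 7144, autograft 4600.2) and Mgst1, a microsomal glutathione transferase on the same list, at 0.63 (allograft 3889, autograft 2518), while Fads3 of the desaturase family stood at -0.47 (allograft 463.5, autograft 641) and Pnpla3 at -0.44 (allograft 207.5, autograft 281). Of 16 further regulators, 6 lay above 0, and the median was -0.20. Cebpb and Cebpd, early factors of fat cell formation, stood at 0.53 (allograft 1280, autograft 889) for Cebpb and 0.36 (allograft 1207, autograft 938) for Cebpd. Scap, which escorts the sterol-regulated factors encoded by Srebf1 and Srebf2 to their activation, stood at -0.97 (272 in the allograft sample and 535 in the autograft sample), and Srebf2, the factor of cholesterol synthesis, at -0.79 (allograft 249.6, autograft 432.5).

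Fatty acid oxidation, the opposite pathway, had 5 of 20 genes above 0 and a median of -0.18. Pdk4, a kinase that spares glucose when fat is burned and that rises in fasting, was the 1 gene of this list past 2-fold. It read 1862 in the allograft sample and 4274 in the autograft sample, a log2 ratio of -1.20. Acaa2, a thiolase of the pathway, stood at -0.77 (allograft 1571, autograft 2672), and Acadl, an acyl-CoA dehydrogenase, was the highest at 0.43 (allograft 4360, autograft 3229), ahead of Etfb, which passes on its electrons, at 0.31 (allograft 4089, autograft 3305). Cholesterol synthesis had 5 of 14 genes above 0 and a median of -0.15. Its 1 gene past 2-fold, Fdft1, squalene synthase, stood at 1.05 (allograft 549, autograft 266) in a probe set marked as able to match several transcripts, and at -0.22 (allograft 346, autograft 404) in another. Next was Sc5d, a sterol desaturase, at 0.27 (allograft 245, autograft 203), and Dhcr7 (-0.22) and Ebp (-0.21), enzymes of the last steps, were the lowest of the 8 genes above the floor on both arrays. Stard4 (-0.49), Cyp51 (-0.29), Mvd (-0.27) and Lss (-0.22) lay lower, each with its allograft value below the floor. Under the 4 other scalings the medians of these 5 pathway lists ran from -0.19 to 0.04 and those of all genes from -0.03 to -0.02.

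**Figure D4:**
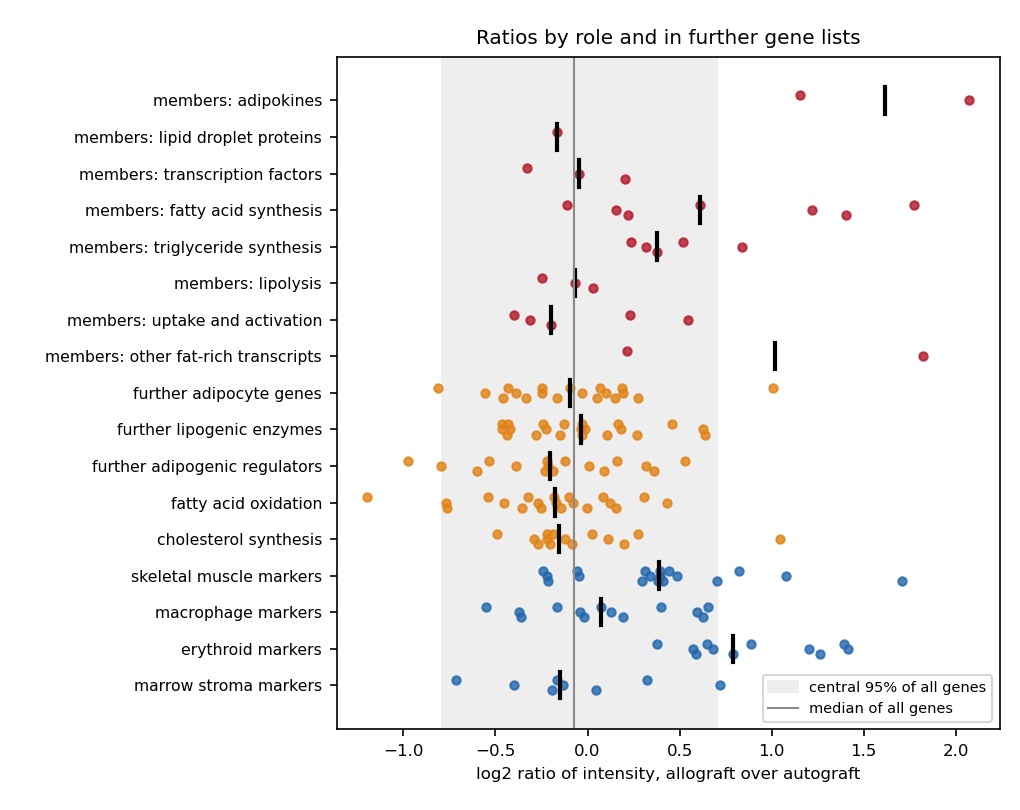
Log2 ratio of allograft over autograft for each gene above the floor, in rows for the roles of the members (red), related pathways (orange) and marker lists (blue). The marker lists drawn are those of skeletal muscle, macrophages, erythroid cells and marrow stroma. Other marker lists are not drawn, among them the endothelial one, with Robo4 at -1.23. Black bars are list medians, the grey line is the median of all genes, and their central 95%, from -0.79 to 0.70, is shaded. Adipokine and fatty acid synthesis members, Dgat2 and Cyp2e1 reach past the shaded range on the right, as do erythroid and skeletal muscle markers and Vcam1 of marrow stroma. The related pathways centre near the median of all genes. Among their genes, Adig and Fdft1 lie past the range on the right, and Rbp4, Scap, Srebf2 and Pdk4 on the left.

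Markers of other tissues in the femur differed between the arrays as well. Of 18 skeletal muscle genes, all above the floor, 13 had a ratio above 0, with a median of 0.39. Their summed intensity was 100910 in the allograft sample and 80184 in the autograft sample. Atp2a1, the calcium pump of fast muscle, stood at 1.71, and Acta1, skeletal muscle actin, at 1.08, with Tnnt3, a troponin, at -0.22 and Myh2, a myosin of fast oxidative fibres, at -0.24. The muscle median was 0.10 after quantile normalization and 0.14 with the intensity trend subtracted, each with 1 gene past 2-fold in place of 2. All 11 erythroid genes with a probe set had a ratio above 0, with a median of 0.79 and sums of 26321 in the allograft sample and 14659 in the autograft sample. Past 2-fold were Hemgn (1.41), Ermap (1.39), Rhag (1.26) and Slc4a1 (1.20), and the median was 0.82 to 0.88 under the 4 other scalings. Endothelial genes lay the other way, with 1 of 8 above 0 and a median of -0.24, which was -0.19 to -0.14 under the other scalings. Robo4, a receptor of vessel cells, was 2-fold lower in the allograft sample at -1.23 (allograft 182.1, autograft 427.9), and Tek, the angiopoietin receptor, was the highest at 0.17. Macrophage genes had a median of 0.07 over 13 genes, with Csf1r (0.65) highest, then Cd163 (0.63), whose autograft value was below the floor, and Lyz2 (0.60), and with Adgre1 (-0.37) and Cd68 (-0.55) lowest. The macrophage sums were 34123 in the allograft sample and 30283 in the autograft sample. Marrow stroma genes had a median of -0.15 over 8 genes, with Vcam1 at 0.72 and Foxc1 at -0.72 at the ends. Of 6 brown fat genes with a probe set, 4 were below the floor, Ucp1 and Cidea among them, and the other 2, Cox8b (-0.32) and Dio2 (-0.64), had ratios below 0. The part of muscle, erythroid and vessel content in the member values was not tested.

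**Figure D5:**
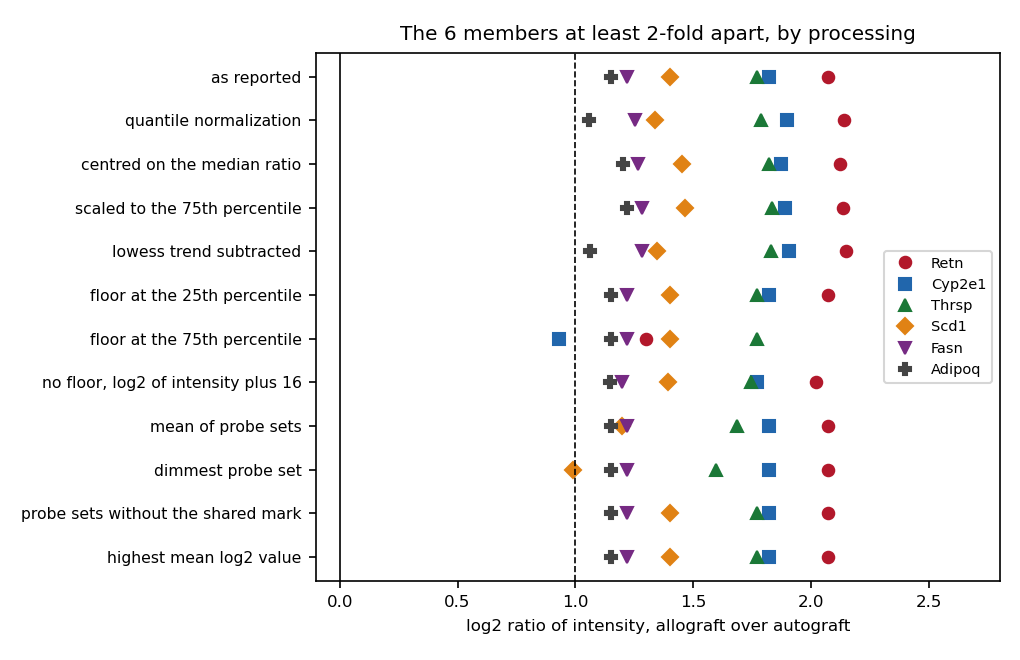
Log2 ratio of allograft over autograft for the 6 members at least 2-fold apart, in 1 row per way of processing, with a dashed line at a 2-fold difference. All 6 stay right of 0 in each row shown, and the points left of the dashed line are Cyp2e1 at 0.93 under the floor of the 75th percentile and Scd1 at 0.99 by its dimmest probe set.

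The direction of the 6 differences was the same under each processing tried, while their size varied most for Retn and Cyp2e1, whose autograft values were below the floor of the 75th percentile. The log2 ratio of Retn ran from 1.30 to 2.15 over the settings, that of Cyp2e1 from 0.93 to 1.91, that of Thrsp from 1.60 to 1.83 and that of Scd1 from 0.99 to 1.47. Fasn and Adipoq, with 1 probe set each, moved least, between 1.20 and 1.28 and between 1.06 and 1.22.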

How the data were processed

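Total RNA of mouse femur was measured on 2 arrays, 1 allograft and 1 autograft, grouped by their titles. The deposited intensities are linear, with 1 value for each probe set on each array. How the authors corrected the background, and with which software, is not given in the sources used here. The trimmed means of both arrays were within 10% of each other, so the intensities were used as deposited, without further scaling. At 500.2 for the allograft and 500.1 for the autograft array, they are those of arrays already scaled to one value. The check therefore could not show that the arrays are comparable. The medians of non-control probe sets were 166.8 for the allograft and 184.2 for the autograft array. How the authors scaled the arrays is not given in the sources used here. Of 22626 non-control probe sets 20380 had 1 gene symbol, 691 several and 1555 were not listed; Entrez identifiers of 20351 matched RefSeq (GRCm38.p6), and 0 symbols changed. Of several probe sets of a gene, the one with the highest mean intensity stands for it. Values under the floor, the median of all non-control intensities, were set to it, and a gene was called at a 2-fold difference. No p-value is given, since each graft type has 1 array. The members and gene lists were chosen with earlier results of these data known. All members are named; genes of other lists were named from among their 2 highest and 2 lowest above the floor on both arrays and any 2-fold apart, and the markers that were below the floor are named to say so. Stard4, Cyp51, Mvd, Lss and Cd163, each above the floor on 1 array, were named after their values were seen. Promoters are from RefSeq and were found for 26 of the 36 members on the array. The alternatives were 3 other scalings, a lowess fit of span 0.4, floors at the 25th and 75th percentile, other choices of probe set, and thresholds of 1.5-fold and 4-fold. A further one was log2 of intensity plus 16 without a floor, taken over the genes that passed the main floor. The counting step was tested on simulated data with a set noise and with changes well past 2-fold, planted only in genes far above the floor. It does not show how changes near 2-fold or in genes near the floor are recovered. Python 3.11.15, numpy 2.4.6, pandas 2.3.3, statsmodels 0.14.6 and matplotlib 3.10.9 were used.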

Additional observations from a re-analysis of the deposited data

How the results depend on the processing

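The count of 6 members at least 2-fold higher stayed at 6 under quantile normalization, centring on the median ratio, scaling to the 75th percentile and the lowess fit. It was also 6 with no floor, a setting that kept only the 28 members that passed the main floor. Members below that floor on both arrays, such as Pparg, could not enter there. The count was again 6 with the mean or dimmest probe set and with unmarked probe sets only. The same held for the probe set with the highest mean log2 value, a setting chosen after seeing the data. Retn, Adipoq, Fasn and Cyp2e1 have 1 probe set each, so the choice of probe set could not move them. With the dimmest probe set Fabp4 took the place of Scd1, by a probe set that stood at 0.88 once the intensity trend was subtracted. The count was 7 under a 25th percentile floor (Pparg added) and 5 under a 75th percentile floor (without Cyp2e1). It was 8 at 1.5-fold (Dgat2 and Me1 added) and 1 at 4-fold (Retn). The count of 2-fold lower members was 1 (Acaca) under the 25th percentile floor and 0 elsewhere. The median log2 ratio of 0.23 was 0.092 once members below the floor were counted at 0, and 0.43 as a mean. Of all named genes, 68 were 2-fold higher and 59 lower as reported, 87 and 43 scaled to the 75th percentile, 77 and 38 after quantile normalization, 84 and 46 after centring and 81 and 35 after the lowess fit; the causes were not tested. The shares below are of the named genes above the floor of each setting. Under the 25th percentile floor 1.37% of 10665 genes were 2-fold higher and 2.25% lower. Under the 75th percentile floor 0.804% of 4230 genes were higher and 0.378% lower. With no floor, over the 7833 genes that passed the main floor, 1.16% were higher and 1.26% lower. Lower genes thus outnumbered higher ones under the 25th percentile floor and with no floor. Of the same 7833 genes, 4.0% were higher and 6.56% lower at 1.5-fold, and 0.0766% were higher and 0% lower at 4-fold. No paired analysis was possible because each graft type has 1 array. No array could be left out for the same reason. Signals below the floor on both arrays limit Pparg, Cidec, Pck1, Acaca, Lep, Cidea, Aqp7 and Ucp1. Signals near the floor limit Lipe and Slc27a1.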
